A study of Mus musculus with 6 samples.

Results

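Replication-dependent histone genes encode the histones that package DNA as it is copied: the linker histone H1 and the core histones H2A, H2B, H3 and H4. They lie in clusters, most have no intron, and most of their mRNAs end in a conserved stem-loop instead of a poly(A) tail. The stem-loop is bound by the protein Slbp, and the mRNAs are abundant in S phase and are degraded when DNA synthesis stops. Some of these genes, H2B genes among them, also give spliced, polyadenylated transcripts. The members were all ids of the 4 exonic tables whose name starts with Hist1h, Hist2h, Hist3h or Hist4h, which gave 68 of 23227 ids, and the genes described in depth are the 5 of these with a mean of at least 10 normalised reads.

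The samples were immortalized monoclonal lines of murine mesenchymal stem cells, named fibroblasts elsewhere in the labels, and were harvested before confluence. The groups were Dicer KO (Dicer -/-) cells, Dicer WT (Dicer f/f) cells, WT cells over-expressing Pbx3, Sox9 or Tead4, and WT cells transfected with the empty vector. Dicer is the enzyme that cuts miRNAs from their precursors, and Pbx3, Sox9 and Tead4 are transcription factors. KO and WT cells are clonal lines, so that a difference of genotype and one of clone cannot be told apart, and every factor was compared with the same vector libraries. Total RNA depleted of ribosomal RNA was read from strand-specific libraries. The labels list 1 sample per group, but the deposited group means resolved into whole reads of 2 libraries per group, 12 in all, with exonic depths of 6130267 to 23501655 reads and intronic depths of 3156973 to 10205497 reads. No source used here says whether both libraries of a group came from separate cultures, so a p-value reflects the scatter of 2 libraries that may be technical repeats. Of 10 mesenchymal markers 9 were above 1 RPM (reads scaled to the exonic total of a library) in every library, and Thy1 was listed at 0. Endothelial and epithelial markers summed to at most 0.596 RPM, and blood markers to at most 2.80 RPM, with Cd68 the one blood marker above 1. Dicer1 had 935 and 1067 normalised exonic counts in KO cells, against 1407 and 1343 in WT cells (limma adjusted p = 0.0846). Pbx3 and Tead4 passed in their own comparisons (log2 fold changes of 7.04 and 7.17). Sox9 did not: it had 179 and 186 counts in Sox9 cells, against 116 and 47.5 in vector cells (log2 fold change 1.29 ± 0.39 SE, adjusted p = 0.225).

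Most replication-dependent histone genes could not be followed in these tables, because 62 of the 68 ids were listed at 0 in all 4 exonic tables. All 6 ids of H1 and all 18 of H2A were at 0, as were 16 of 19 for H2B, 10 of 12 for H3 and 12 of 13 for H4. The zeros followed exon number and were not particular to histones. Of the histone ids that GENCODE annotates as protein-coding genes with single-exon transcripts alone, 59 of 61 were listed at 0, and of other protein-coding genes of that kind 781 of 798 were (97.9%). Of other protein-coding genes with a transcript of 2 or more exons, 3748 of 17692 were listed at 0 (21.2%). Jun, Ier2, Rhob, Cebpb and the replacement histone gene H2afx, all with 1 exon and named here after their values were seen, were at 0 as well. A histone gene listed at 0 is therefore a gene without a value in these tables, and not one shown to be silent.

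**Figure D1:**
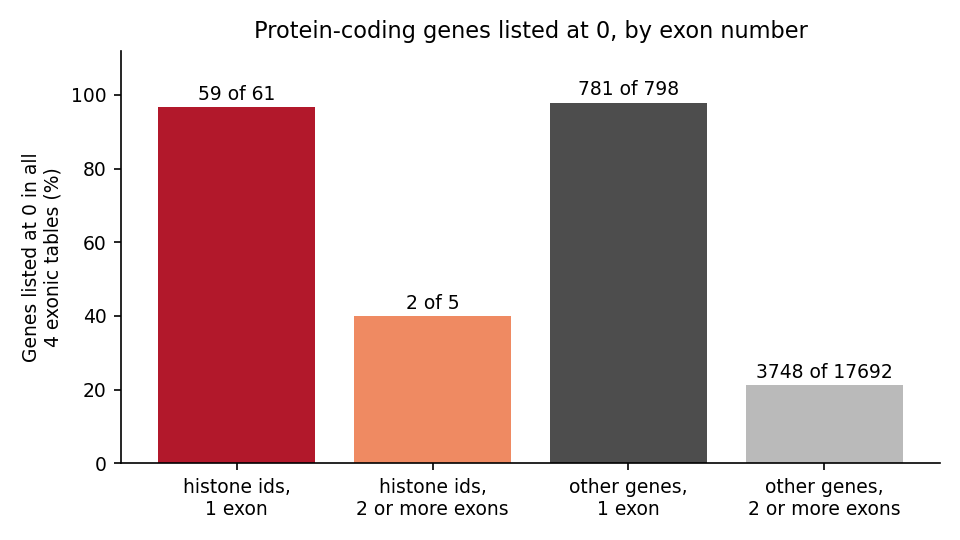
Percent of protein-coding genes listed at 0 in all 4 exonic tables, split into histone ids and other genes and into genes whose every GENCODE transcript has 1 exon and genes with a transcript of 2 or more exons; the counts stand above the bars. Single-exon genes were nearly all at 0 in both sets, 59 of 61 and 781 of 798.

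The 5 measured genes were 3 H2B genes on chromosome 13 (Hist1h2bc, Hist1h2be and Hist1h2bp), the H3 gene Hist2h3c1 on chromosome 3 and the H4 gene Hist4h4 on chromosome 6. Of the 67 ids found in GENCODE, 5 had a transcript of 2 or more exons, and these were the 3 measured H2B genes together with Hist1h2bq and Hist1h2br, both at 0 in the exonic tables. Hist2h3c1 and Hist4h4 have single-exon transcripts alone in GENCODE and yet held reads. The 6th id with reads, the H3 pseudogene Hist2h3c2-ps, stayed below the minimum, with 8 exonic reads in KO cells, 3 in WT cells, 4 in Pbx3 cells, 6 in Sox9 cells, 12 in Tead4 cells and 4 in vector cells, over both libraries of a group.

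The stem-loop is the mark of the classical, tail-less histone mRNA. It was searched for in all 141767 GENCODE transcripts (GRCm38) in 2 forms of 16 bases, on the transcript's own strand. The form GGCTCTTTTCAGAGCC was found in 25 of the 67 histone ids, none of them H4, and the form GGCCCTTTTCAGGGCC in 7, all of them H4. Of all transcripts, 0.0268% held either form. Among the measured genes 4 of 5 had it, and it is given below in capitals with 5 transcript bases on either side, as DNA letters.
Hist1h2be: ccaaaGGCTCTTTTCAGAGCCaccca
Hist1h2bp: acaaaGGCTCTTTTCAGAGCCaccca
Hist2h3c1: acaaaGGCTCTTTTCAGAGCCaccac
Hist4h4: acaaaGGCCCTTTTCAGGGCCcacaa
Hist1h2be, Hist1h2bp and Hist2h3c1 have the same 16 bases, and Hist4h4 has the H4 form. The spliced transcript of Hist1h2bc, its one transcript in GENCODE, held neither form, nor did the spliced transcript 202 of Hist1h2bp or transcript 203 of Hist1h2be. A transcript without a match may also end before the stem-loop, since some GENCODE models stop at the coding sequence.

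The upstream sequences differ in their motifs. RefSeq promoter windows (GRCm38.p6, 250 bases before to 50 after the start) were matched for 4 of the 5 genes, and Hist1h2bc is the other. The windows were searched on both strands for ATTTGCAT, the octamer bound by Oct1 at H2B genes, for CCAAT, bound by NF-Y, and for TATAA, the core of the TATA box. They are shown for the measured genes that have a window, with matches in capitals on either strand. Hist1h2be, the downstream of its 2 RefSeq starts, lies at chr13:23585921-23586220 (minus strand), Hist1h2bp at chr13:21787238-21787537 (plus strand), Hist2h3c1 at chr3:96246435-96246734 (plus strand) and Hist4h4 at chr6:136804382-136804681 (minus strand).
Hist1h2be: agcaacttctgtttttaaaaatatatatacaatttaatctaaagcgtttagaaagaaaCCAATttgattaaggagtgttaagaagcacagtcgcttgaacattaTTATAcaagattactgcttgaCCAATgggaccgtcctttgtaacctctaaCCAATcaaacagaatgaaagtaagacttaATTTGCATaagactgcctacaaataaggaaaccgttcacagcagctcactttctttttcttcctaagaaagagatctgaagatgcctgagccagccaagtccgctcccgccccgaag
Hist1h2bp: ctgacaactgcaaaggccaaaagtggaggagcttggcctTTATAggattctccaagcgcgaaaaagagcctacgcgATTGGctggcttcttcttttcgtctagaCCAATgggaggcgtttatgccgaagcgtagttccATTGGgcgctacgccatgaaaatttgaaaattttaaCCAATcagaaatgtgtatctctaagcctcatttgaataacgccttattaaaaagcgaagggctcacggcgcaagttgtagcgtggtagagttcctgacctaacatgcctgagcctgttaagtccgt
Hist2h3c1: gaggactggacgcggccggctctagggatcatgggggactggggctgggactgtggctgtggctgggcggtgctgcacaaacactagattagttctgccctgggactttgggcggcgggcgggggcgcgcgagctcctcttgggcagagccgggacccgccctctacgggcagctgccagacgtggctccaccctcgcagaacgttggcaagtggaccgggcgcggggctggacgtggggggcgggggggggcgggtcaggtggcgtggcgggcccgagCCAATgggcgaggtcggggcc
Hist4h4: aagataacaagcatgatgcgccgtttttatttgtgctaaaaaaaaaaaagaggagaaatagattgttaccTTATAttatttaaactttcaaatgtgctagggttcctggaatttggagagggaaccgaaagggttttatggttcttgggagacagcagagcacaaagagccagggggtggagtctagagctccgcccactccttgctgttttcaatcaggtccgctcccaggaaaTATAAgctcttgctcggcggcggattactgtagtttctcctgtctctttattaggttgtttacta
This Hist1h2be window held the octamer once, 67 bases before the start, with 3 CCAAT and 1 TATAA. The window of its upstream start, which is not printed, held 3 CCAAT and neither other motif. Hist1h2bp held no octamer, 4 CCAAT and 1 TATAA. The Hist2h3c1 window held a single CCAAT, 30 bases after the annotated start, and neither other motif. The Hist4h4 window held 2 TATAA and neither other motif. The octamer was in 41.2% of 17 H2B windows and in 41.2% of 17 H2A windows, in none of the H1, H3 or H4 windows and in 1.74% of all 32817 windows. CCAAT was in 100% of the H2B, H2A, H1 and H3 windows, in 25% of 12 H4 windows and in 37.4% of all windows. TATAA was in 76.5% of the H2B windows, 88.2% of H2A, 83.3% of 6 H1, 50% of 10 H3, 91.7% of H4 and 24.9% of all windows. H2A and H2B genes lie head to head, so that some of their windows overlap. These matches describe letters in a window and were not tested as binding sites.

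Reads of these genes are not fully their own, since histone genes share sequence. Of the 50-base windows of the Hist1h2bp transcripts, 45.3% and 69.0% occur in other histone ids, all of them H2B. For Hist1h2bc 29.4% did, and for the 3 Hist1h2be transcripts 16.8% to 19.6% did. For Hist2h3c1 34.7% and 34.8% of the windows occur at other loci, Hist2h3c2 foremost. All others are also in the overlapping gene Gm20634 on the same strand, so that 100% of the Hist2h3c1 windows are shared. Hist1h2be spans 37455 bases in GENCODE, and the shared windows of its transcript 203 are those of the H1 gene Hist1h1e, which overlaps it on the same strand and was itself listed at 0. Hist4h4 shared no window with a histone id and 8.14% with other genes. How the authors assigned shared reads, and whether their counting used strand, is not stated in any source used here, so all these values are uncertain to that extent.

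Across the 6 groups the genes fell into different patterns of level. Levels are given here as exonic RPM and are not compared between genes, whose counted lengths are not given. None of the 4 comparisons sets KO or WT cells against transfected cells, so no test was made between them. These sets also differed in depth, with at least 18517189 exonic reads in KO and WT libraries and at most 11011360 in transfected ones. Hist1h2bc stood at 27.6 and 27.9 in KO cells, against 2.63 and 4.37 in WT cells. In the transfected cells it was at 4.37 to 4.89 with Pbx3, 9.01 to 9.14 with Sox9, 3.68 to 13.6 with Tead4 and 5.94 to 6.08 with vector. Both KO libraries were thus above every other library, and the 2 Tead4 libraries lay on either side of the other transfected cells. Hist2h3c1 was at 15.1 and 22.6 in KO cells and at 4.18 and 5.94 in WT cells, and it spanned 2.88 to 4.62 with Pbx3, 6.18 to 6.20 with Sox9, 7.61 to 10.6 with Tead4 and 3.81 to 4.20 with vector. It too was highest in the KO libraries, followed by Tead4, while the Pbx3, WT and vector ranges overlapped or adjoined each other.

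The other genes were ordered differently. Hist4h4 was at 16.03 and 16.5 in KO cells, against 11.9 and 12.4 in WT cells, and at 26.2 to 44.9 over the 8 transfected libraries. Within the transfected cells its ranges overlapped, at 30.1 to 40.7 with Pbx3, 28.2 to 43.4 with Sox9, 26.2 to 44.9 with Tead4 and 30.7 to 35.4 with vector. Hist1h2be ranged from 245 to 529 and Hist1h2bp from 133 to 300.4 over the 12 libraries, both highest in a WT library. The ratio of Hist1h2be to Hist1h2bp reads lay between 1.59 and 1.97 in all 12 libraries, whereas the ratio of Hist1h2bc to Hist1h2be reads ran from 0.00497 to 0.0848. The exonic reads of Hist1h2be and Hist1h2bp thus moved together from library to library, and Hist1h2bc did not follow them. Hist1h2bp shares sequence with other H2B ids, Hist1h2be among them, and the part of shared reads in this was not tested. In introns their log2 fold changes in KO cells had opposite signs (0.81 and -0.70), and neither passed.

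**Figure D2:**
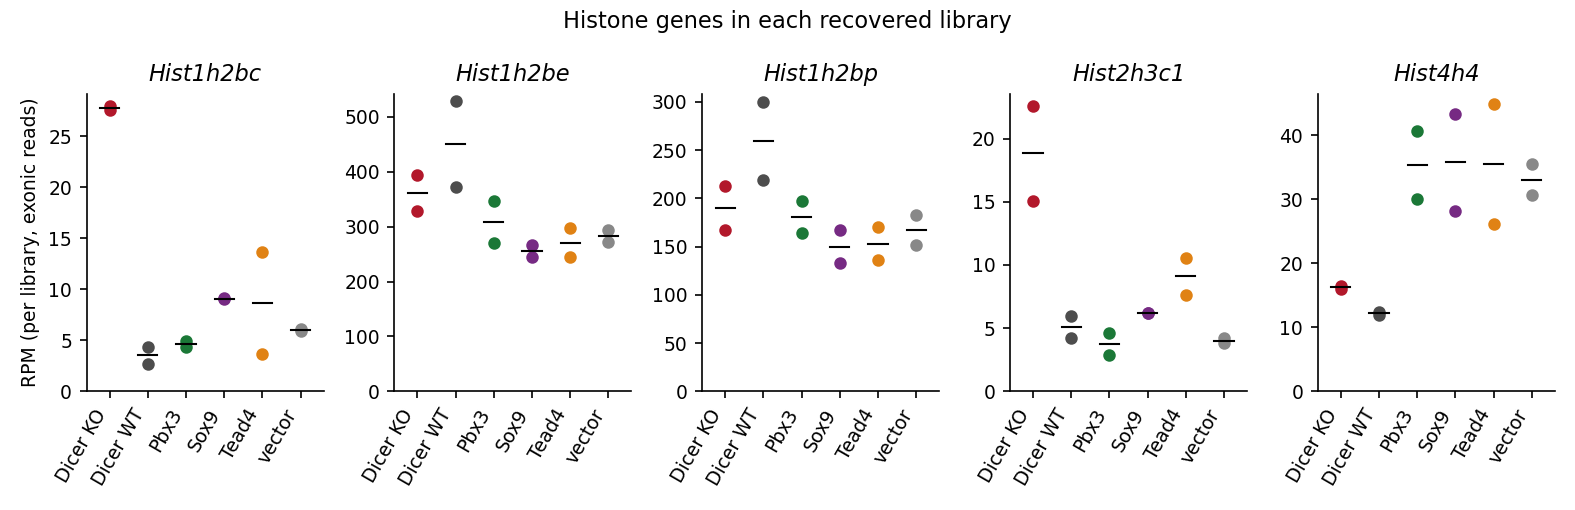
Exonic RPM of the 5 measured histone genes in each of the 12 recovered libraries (points) with the mean of the 2 libraries of a group (line); each panel has its own linear axis. Hist1h2bc and Hist2h3c1 were highest in both Dicer KO libraries, at 27.6 and 27.9 and at 15.1 and 22.6, while Hist4h4 was higher in every transfected library than in KO or WT cells.

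In Dicer KO cells the measured histone genes did not change as a class. Hist1h2bc, one of the H2B genes, and Hist2h3c1, the H3 gene, rose, and the other 3 genes did not pass the test. Every 50-base window of the Hist2h3c1 transcripts also occurs in another gene, so a read of that length cannot be assigned to Hist2h3c1 alone. With a term for library order Hist1h2be and Hist1h2bp passed too, both lower, in a fit that called many more of all genes. Hist1h2bc had 594 and 597 normalised exonic counts in KO cells, against 57.5 and 90.2 in WT cells. The groups were far apart, and the KO libraries were alike. This is a log2 fold change of 3.03 ± 0.28 (SE, n = 2 libraries in each group; limma, adjusted p = 0.00447), or 8.16-fold. In the authors' deposited table it has a log2 fold change of 3.01 and an adjusted p of 1.29e-18, and Hist2h3c1 one of 1.92 and 0.00131. Hist2h3c1 had 325 and 483 normalised counts in KO cells, against 91.4 and 123 in WT cells, again without overlap (log2 fold change 1.89 ± 0.29 SE, 3.72-fold, limma adjusted p = 0.0151). Its call was lost without KO library 2 (adjusted p = 0.0959; 1.61 on the log2 scale). Both calls were for higher levels, 2 of 5 members, where 17.6% of the 11901 genes tested passed, 9.28% higher and 8.33% lower. The same members passed by limma-voom, where 16.5% of all genes did, and in the authors' deposited table, where 11.0% did. In bulk RNA, fewer cells of a type and less RNA per cell cannot be told apart. The mesenchymal markers Col1a1 (log2 fold change -2.31), Ly6a (-1.17) and Col1a2 (-0.96) fell in the same comparison, 3 of 9 measured, and their part in these differences was not tested.

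Hist4h4 had 356 and 343 normalised counts in KO cells, against 272 and 245 in WT cells. Both KO libraries were above both WT libraries, but the difference did not pass (0.43 ± 0.19, limma adjusted p = 0.166). Hist1h2be, with the highest counts of the members, had 8496 and 7042 in KO cells, against 11572 and 7678 in WT cells, and the groups overlapped (-0.29 ± 0.23, adjusted p = 0.430). Hist1h2bp had 4589.7 and 3580.4 counts in KO cells, against 6576 and 4514 in WT cells (-0.43 ± 0.23, adjusted p = 0.248). Its groups overlapped by a small margin. The median log2 fold change of the 5 members was 0.43 and that of all genes tested -0.01, but the members lay on either side of it, from -0.43 to 3.03.

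**Figure D3:**
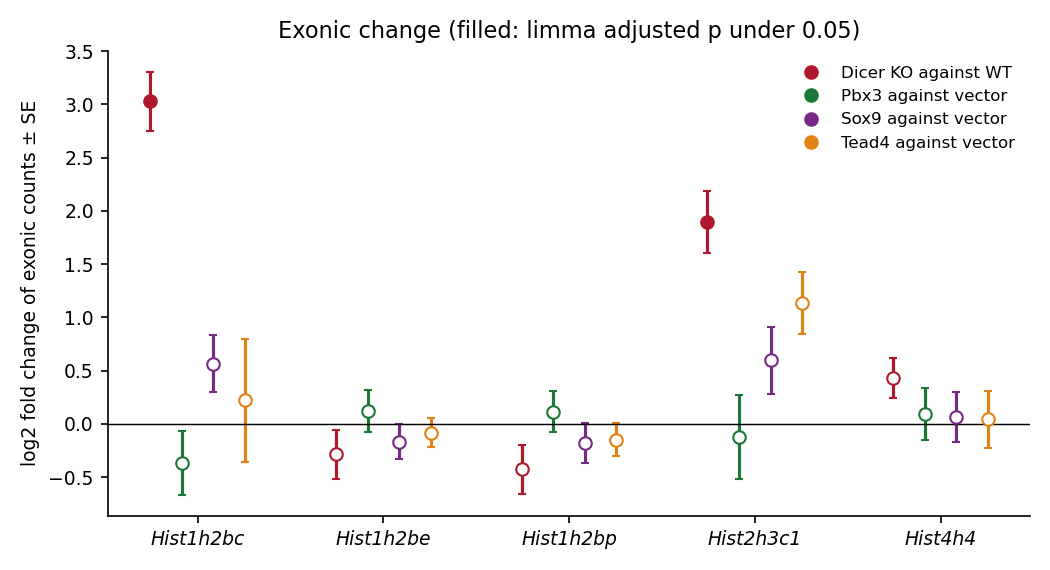
Exonic log2 fold change ± SE of the 5 measured histone genes in the 4 comparisons (2 libraries against 2 in each); filled points passed the limma test at an adjusted p under 0.05. The filled points are Hist1h2bc (3.03) and Hist2h3c1 (1.89) in Dicer KO cells.

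Intronic reads give a second reading of the spliced H2B genes, since such reads are taken to come mostly from RNA not yet spliced. Hist1h2be and Hist1h2bp also have transcripts that hold the stem-loop, and histone mRNA made without splicing has no intronic precursor. Exonic and intronic reads of these genes may thus come from different transcripts, which was not tested. The intronic tables held 4 pattern ids: Hist1h2bc, Hist1h2be, Hist1h2bp and Hist1h2br, the last with at most 12 reads in a group. In KO cells Hist1h2bc rose in introns as well, with 613 and 465 normalised intronic counts in KO cells, against 152 and 214 in WT cells (1.56 ± 0.24, limma adjusted p = 0.0278). Of all genes tested on intronic counts 6.8% passed. The intronic call was lost without KO library 1 (adjusted p = 0.122) or KO library 2 (adjusted p = 0.0670), with log2 fold changes of 1.36 and 1.76. The exonic change exceeded the intronic one by 1.47 ± 0.39 on the log2 scale. That difference had an unadjusted p of 0.00713 and did not pass over all genes (limma adjusted p = 0.581, where 0.00927% of genes passed), in a test that treats the exonic and intronic values of a library as separate. Hist1h2be had 265 and 144 intronic counts in KO cells, against 92.6 and 133 in WT cells (0.81 ± 0.36, adjusted p = 0.241). Hist1h2bp had 235 and 331 in KO cells, against 539.9 and 379.8 in WT cells (-0.70 ± 0.26, adjusted p = 0.183). For both genes the groups stood apart in intronic counts by a small margin, and neither passed the test. Gaps of this kind were not counted over all genes, so they are not read as a change.

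The share of intronic reads set Hist1h2bc apart from the other H2B genes in every group. Over both libraries of a group, 47.0% of its reads were intronic in KO cells and 71.9% in WT cells, and 57.7% with Pbx3, 38.8% with Sox9, 60.2% with Tead4 and 63.1% with vector. For Hist1h2be the share lay between 0.976% and 2.50%, and for Hist1h2bp between 6.29% and 9.93%. Over all genes it was 28.7% to 33.1%. Hist1h2bc was therefore above the share of all genes in each group, and the others below it. The lowest shares of Hist1h2bc were those of Sox9 and KO cells, and these shares were not tested. How far unspliced transcripts enter the shares of Hist1h2be and Hist1h2bp was not tested either.

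**Figure D4:**
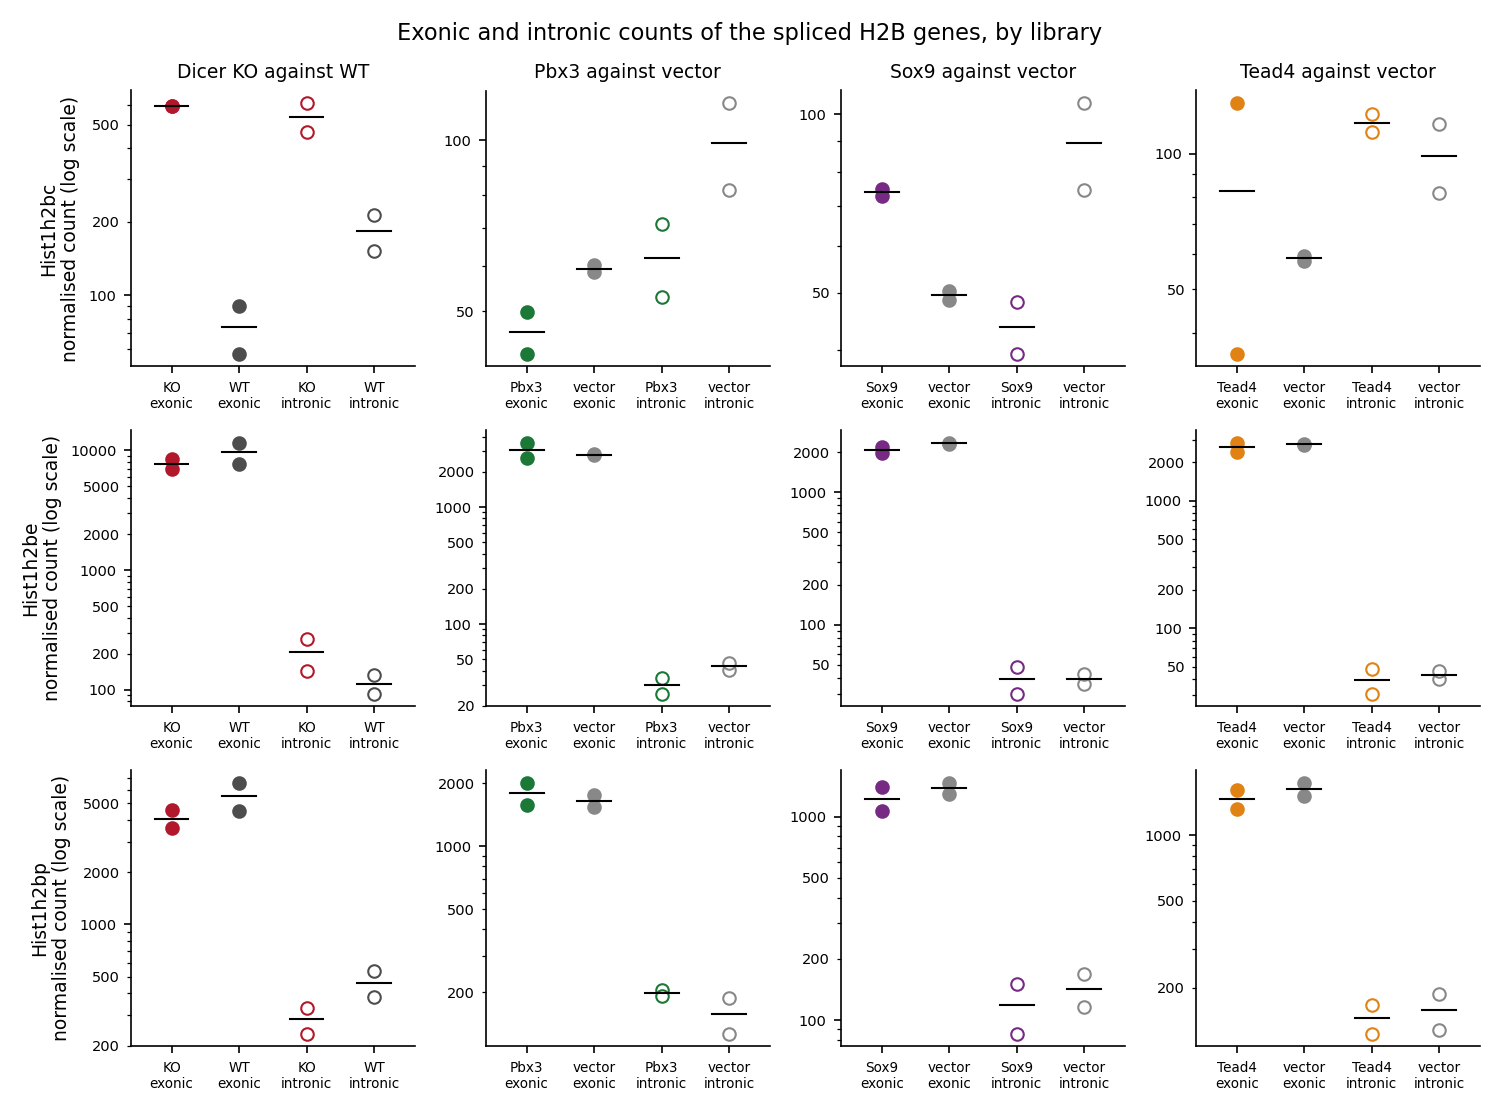
Normalised exonic (filled) and intronic (open) counts of the 3 spliced H2B genes in each library, on log axes that differ between panels, for the 4 comparisons; lines are means of 2 libraries. Hist1h2bc intronic counts were of the size of its exonic counts or above them in most groups, whereas Hist1h2be and Hist1h2bp had far fewer intronic than exonic counts.

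None of the 5 members passed the test in cells over-expressing Pbx3, where 0.00896% of the 11166 genes tested passed (1 gene). At an unadjusted p under 0.05 the count was also 0 of 5, where 2.53% of all genes stood, and it was 0 by limma-voom, where 0.00896% passed, and in the authors' deposited table, where 0.102% passed. Hist1h2bc had 49.9 and 42.1 normalised counts in Pbx3 cells, against 58.6 and 60.2 in vector cells, with no overlap (-0.37 ± 0.30 on the log2 scale). The other genes overlapped between the groups, at log2 fold changes of -0.12 to 0.12, the highest that of Hist1h2be. Every adjusted p of the members rounded to 0.9999. The median over the members was 0.09 and over all genes tested -0.00.

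In Sox9 cells the members again gave 0 of 5 calls, where 0.945% of the 11116 genes tested passed. The count was 0 at an unadjusted p under 0.05 as well, where 13.5% of all genes stood, 0 by limma-voom, where 0.657% passed, and 0 in the authors' deposited table, where 1.14% passed. Hist1h2bc had 74.8 and 72.9 normalised exonic counts in Sox9 cells, against 48.7 and 50.4 in vector cells (0.57 ± 0.27, adjusted p = 0.407). Its intronic counts went the other way, with 39.5 and 48.3 in Sox9 cells, against 104 and 74.6 in vector cells (-0.999 ± 0.26, limma adjusted p = 0.109). Neither difference passed, with 2.06% of all genes passing on intronic counts. The groups did not overlap in either kind of read, but how many of all genes show no overlap was not counted. The exonic change exceeded the intronic one by 1.56 ± 0.34 (unadjusted p = 0.00161, limma adjusted p = 0.9997), and 0 of the 9929 genes tested passed for that difference (0.0%). Hist2h3c1, with the highest log2 fold change among the members, had 51.3 and 49.5 counts in Sox9 cells, against 30.5 and 35.6 in vector cells (0.60 ± 0.31, adjusted p = 0.447). Hist1h2bp was lowest at -0.18 ± 0.19, with 1389.6 and 1058 counts in Sox9 cells, against 1466 and 1286 in vector cells. The median of the members was 0.07 and that of all genes tested -0.01.

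In Tead4 cells no member passed, and Hist2h3c1 was the one with an unadjusted p under 0.05. It had 103 and 72.6 normalised counts in Tead4 cells, against 36.3 and 41.9 in vector cells, with no overlap. The log2 fold change was 1.13 ± 0.29 with a limma adjusted p of 0.162 and an unadjusted p of 0.00800, and the authors' deposited table has 1.17 with an adjusted p of 0.124. With 1 library left out its log2 fold change lay between 0.88 and 1.38. Such fits assume that the lone library of a group varies like those of the other group. In all, 0 of 5 members passed by limma, where 0.206% of the 11139 genes tested passed, 0 by limma-voom, where 0.215% passed, and 0 in the authors' deposited table, where 1.7% passed. At an unadjusted p under 0.05 the count was 1, where 15.7% of all genes stood. Hist1h2bc had 35.9 and 129.7 counts in the Tead4 libraries, against 57.8 and 59.3 in vector cells. Its log2 fold change of 0.22 ± 0.58 rests on which Tead4 library is kept, since it lay between -0.69 and 1.13 with 1 library left out. The remaining members differed from vector by -0.15 to 0.04 on the log2 scale, Hist1h2bp being lowest, and the median of the members was 0.04, against 0.01 for all genes tested.

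Genes that work with these histones were followed through 4 lists. In KO cells their counts stand beside 17.6% of all genes tested that passed by limma, 16.5% by limma-voom and 11.0% in the authors' deposited table. The first held 20 genes of histone mRNA 3' end processing and turnover, all measured in KO cells. Of these Sympk, a scaffold of the complex that cleaves histone pre-mRNA, rose in KO cells, with 2494 and 2761 normalised counts in KO cells, against 1539 and 1827 in WT cells (0.65 ± 0.15, limma adjusted p = 0.0408). Casp8ap2, also known as FLASH, which helps to recruit that complex, fell, with 3145 and 3255 in KO cells, against 4648 and 4364 in WT cells (-0.49 ± 0.12, adjusted p = 0.0487). The other 18 did not pass and the median was -0.05. Slbp, named here after its values were seen, was among them, with 3493 and 3476 counts in KO cells, against 4327 and 4004 in WT cells (-0.26 ± 0.12, adjusted p = 0.207).

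Replacement histones, which are made outside S phase as well, had 7 measured genes of 13. H3f3b, which encodes the H3 variant H3.3, rose in KO cells, with 8208 and 9574 counts in KO cells, against 5997 and 5261 in WT cells (0.66 ± 0.15, limma adjusted p = 0.0394). Cenpa, the H3 variant of the centromere, fell, with 2024 and 1527 counts in KO cells, against 3387 and 3055 in WT cells (-0.87 ± 0.18, adjusted p = 0.0301). The other 5 did not pass and the median was -0.24. H2afx, H2afj, H1f0, H1fx and H2afb1 were listed at 0, and H3f3c was not found by that name. The calls of Casp8ap2, Cenpa and H3f3b were lost with any 1 library left out, and that of Sympk without KO library 1, KO library 2 or WT library 1. Of these 4 genes the authors' deposited table calls Cenpa alone.

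Among 15 histone chaperones none passed in KO cells by limma, by limma-voom or in the authors' deposited table, and 3 did at an unadjusted p under 0.05, with a median of 0.04. Among 36 genes of DNA replication, which mark S phase, 0 passed by each of the same 3 tests and 5 at an unadjusted p under 0.05, with log2 fold changes between -0.62 and 0.51 and a median of -0.00. Where 34.5% of all genes tested had an unadjusted p under 0.05 in KO cells, neither list stood above that share. In the other lists 7 of 20 processing genes had one, close to that share. So did 3 of 7 replacement histones, too few genes to set against it. In Pbx3, Sox9 and Tead4 cells 0 genes of the 4 lists passed by limma or limma-voom. At an unadjusted p under 0.05 there were 0 in any list in Pbx3 cells, where 2.53% of all genes stood. In Sox9 cells there were 1 of 19 processing genes, 2 of 7 replacement histones, 2 of 15 chaperones and 2 of 36 replication genes, where 13.5% of all genes stood. In Tead4 cells there were 2 of 20, 1 of 7, 2 of 15 and 4 of 36 in the same lists, where 15.7% of all genes stood. The authors' deposited table calls 1 of these genes, H2afy2, in Tead4 cells, which encodes a macroH2A and had 55.7 and 62.7 counts in Tead4 cells, against 154 and 147 in vector cells (-1.33 ± 0.21, limma adjusted p = 0.0926).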

How the data were processed

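The submitters' processing notes name Bowtie2, DESeq 1.10.1 and the build mm9. Per the file headers, the 8 deposited tables give exonic and intronic signal, which are read counts that the authors divided by size factors and averaged per group. The deposited ratio is the fold change of those means, the deposited log2 column its log2 and the deposited p-value columns the authors' test. Sources used here do not name the annotation or the counting rules, and no mm9 genome was used. The number of columns without a group was 0.

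Each group mean was resolved into whole reads of 2 libraries, with a unique solution for every gene, and the recovery was tested on simulated data (5000 of 5000 genes recovered). All 3 factor tables gave the same vector reads (0 genes differed). Library 1 is the one with the larger size factor, and the labels give no pairing of libraries by these numbers. The order was set separately for exonic and intronic counts, so 1 number may name different libraries in them. Genes with a mean of at least 10 were tested with limma 3.58.1 (R 4.3.3, trend) on log2(normalised count + 1), with Benjamini-Hochberg adjustment over all genes tested and a threshold of 0.05. Fold changes are on that scale. With 2 libraries against 2, an exact permutation test of a single value cannot go below p = 0.333, so none is given.

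Exons, transcripts and stem-loops come from GENCODE M21 and promoter windows from RefSeq, both on GRCm38, and 67 of 68 ids matched each. Members, lists and tests were chosen with earlier results of these data known. Text names members that passed, the highest and lowest member of each comparison, the members with the highest counts of each class and list genes that passed. The exonic against intronic test, limma-voom and the crossed library order were added after the data were seen.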

Additional observations from a re-analysis of the deposited data

How the results depend on the processing

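With 2 libraries per group, 1 library can decide a call. The members called in KO cells numbered 1 to 2 when each library was left out, and 4 with a term for library order, which adds Hist1h2be (adjusted p = 0.0494) and Hist1h2bp (adjusted p = 0.00447), both lower. That fit called 5670 of the 11901 genes tested, against 2096 without the term. In Tead4 cells the count was 0 to 1 with a library left out. Medians of the members with a library left out ran from 0.36 to 0.51 in KO cells, -0.17 to 0.29 in Pbx3 cells, -0.08 to 0.35 in Sox9 cells and -0.29 to 0.41 in Tead4 cells. On intronic counts of the 3 H2B genes the medians were 0.81, -0.53, -0.29 and -0.12 in KO, Pbx3, Sox9 and Tead4 cells. The labels carry no replicate numbers, so no pairing comes from the design. The library order by size factor is a hint from the data: its differences correlated across genes at 0.64 between KO and WT cells and at -0.81 to 0.64 over all pairs of groups. Crossing that order gave 0 member calls in Pbx3 cells (806 genes in all) and 1, Hist2h3c1, in Tead4 cells (1222 genes in all). Counts of members called were the same with pseudocounts of 0.5 and 5, a minimum mean of 50 or none, total-read or TMM scaling, a threshold of 0.1, limma-voom and the authors' test. Hist1h2bc in KO cells had adjusted p-values of 2.76e-06 to 0.0320 over its alternatives, Hist2h3c1 in KO cells 2.84e-05 to 0.0959 and Hist2h3c1 in Tead4 cells 0.0186 to 0.999. Casp8ap2 in KO cells also missed the threshold with a minimum mean of 50 (adjusted p = 0.0520), no minimum (0.0574) and limma-voom (0.0539). An edgeR test on the recovered reads was not run. Counts of 36 to 67 reads per library limit Hist1h2bc and Hist2h3c1 in vector cells. The cause of these shifts was not tested.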
